A study of Mus musculus with 4 samples.

Results

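The genes described here encode plasma-type secreted proteins and endocytic receptors that are known from the visceral endoderm, the epithelium that surrounds the early mouse embryo. They were chosen by symbol, 10 of the 23420 gene symbols in the count tables: *Afp*, *Ttr*, *Rbp4*, *Apob*, *Apoa1*, *Fga*, *Fgb*, *Vtn*, *Cubn* and *Amn*. All 10 were listed in each library. The choice was made with the difference between wild type (WT) and *Patz1* knockout (KO) libraries in view, so their values in that comparison are a description and carry no test. The RNA-seq covered cervical motor neuron (MN) cultures made from E14 mouse embryonic stem cells, with 2 libraries of genotype wild type and 2 of genotype *Patz1* -/-. Both genotypes were grown as embryoid bodies for 2 days and then patterned with 1 μM retinoic acid and 0.5 μM smoothened agonist. The knockout was made by CRISPR/Cas9 in E14 cells, and the methods describe single clones, but the labels do not say which clone or clones gave the 2 KO libraries. The methods call biological replicates separate differentiations, and the titles call the samples ESCs while their source and cell type fields call them MNs.

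Visceral endoderm works as an early liver, gut and placenta. It secretes carriers of lipids, retinol and hormones, and it takes up maternal proteins through large receptors on its apical surface, among which cubilin and its membrane anchor amnionless form a pair. Most of the same secreted proteins are later made by hepatocytes, and several are also made elsewhere, such as transthyretin in the choroid plexus. In embryoid bodies an endoderm layer can form on the outside.

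The total count was between 14769104 and 23881522 reads per library. The targeted gene *Patz1* was at 91.4 and 94.2 CPM in WT and at 47.6 and 42.5 CPM in *Patz1* KO (log2 fold change -1.04, edgeR adjusted p = 1.09e-07), and counts over the whole gene do not show the edit itself. The noncoding RNAs *Rn45s*, *Rpph1* and *Rmrp* took 6.33% to 6.81% of the counts in 3 libraries and 9.65% in *Patz1* KO replicate 2. Levels are given as CPM, counts relative to the library total scaled with TMM factors, and 3 counts, or 0.124 to 0.201 CPM, served as the detection limit of a library, for counting error only. Of the 14269 genes tested with edgeR's quasi-likelihood test, 23.8% fell and 24.1% rose with the knockout (Benjamini-Hochberg adjusted p under 0.05), 6837 genes together. Without WT replicate 2 this count was 4521.

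The 10 genes fell into 2 sets by read count, which is not corrected for exon length. *Vtn*, *Rbp4*, *Fgb* and *Cubn* had between 159 and 884 counts in each WT library. *Afp*, *Ttr*, *Apob*, *Apoa1*, *Amn* and *Fga* had at most 31 counts in any of the 4 libraries. The 4 more highly counted genes held 95.0% to 96.1% of the summed CPM of the 10 genes in WT and 74.1% to 77.9% in *Patz1* KO. The sum over the 10 genes was 100.6 and 108 CPM in the WT libraries and 9.15 and 9.65 CPM in the *Patz1* KO libraries, so the groups did not overlap. In bulk libraries such as these, fewer cells of a type cannot be told apart from less RNA per cell.

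In 7 of the 10 genes both *Patz1* KO libraries were lower than both WT libraries in CPM, where 37.2% of all genes tested showed this and 37% the opposite, and in the other 3 the groups overlapped. The filter on low counts was passed by 7 of the 10, and *Apoa1*, *Amn* and *Fga* did not pass. The shares of 37.2% and 37% are of genes that passed and give no baseline for these 3. *Apoa1* is nevertheless among the genes counted as lower in both *Patz1* KO libraries. *Fgb* and *Ttr* passed only through their WT libraries. The filter needs 2 libraries at its level, and in *Patz1* KO *Apob* reached it only in replicate 1 and *Afp* only in replicate 2. At the same threshold 6 of these 7 were lower and 0 higher, beside 23.8% lower and 47.9% called either way among all genes tested. The log2 fold change was below -2 in 5 of the 7, as in 2.77% of all genes tested. This count only restates the comparison from which the genes were chosen. *Apob* was not called without WT replicate 2, which left 5.

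**Figure D1:**
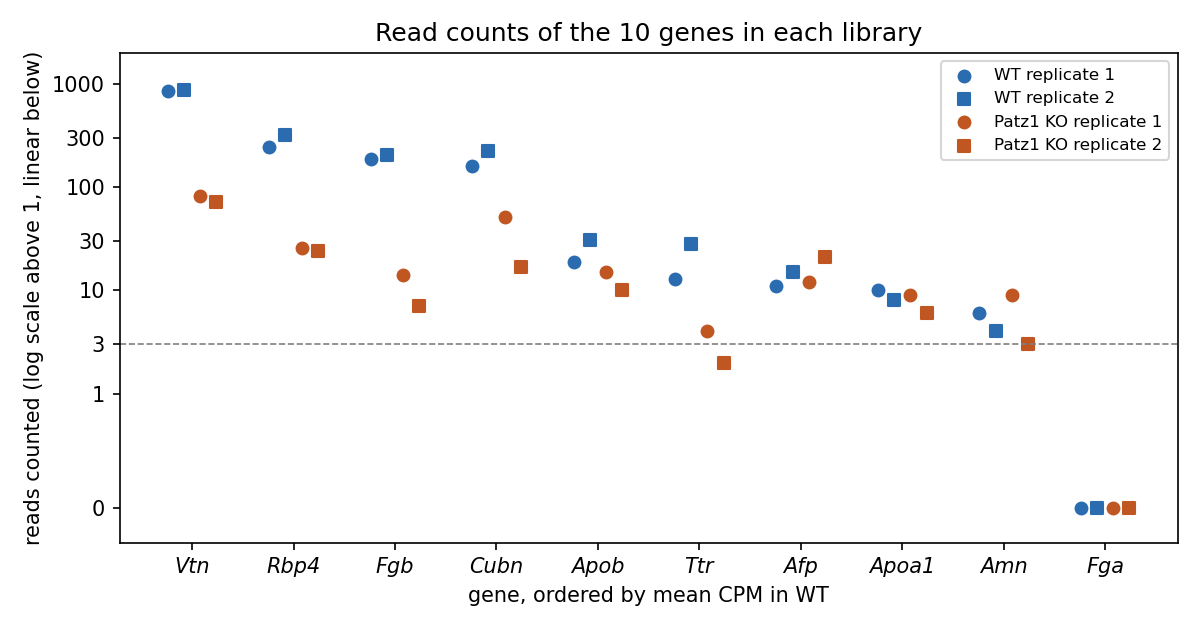
Reads counted for each of the 10 genes (horizontal axis, ordered by mean CPM in WT) in each of the 4 libraries, on a vertical axis that is logarithmic above 1 and linear below. Circles and squares are replicates 1 and 2, and the dashed line is the detection limit of 3 counts. *Vtn*, *Rbp4*, *Fgb* and *Cubn* separate from the other 6 genes in WT, and *Fga* lies at 0 in all libraries.

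Among the secreted carriers, *Rbp4*, which encodes the plasma carrier of retinol, had the highest level. It lies on chromosome 19 of GRCm38 from 38116629 to 38125281. It was counted 245 and 321 times in WT against 26 and 24 times in *Patz1* KO, which is 18.3 ± 2.64 against 1.25 ± 0.253 CPM (SD, n = 2 each). Both *Patz1* KO libraries were far below both WT libraries, with a log2 fold change of -3.90 (standard error 0.22). Transthyretin carries thyroid hormone and binds RBP4 in plasma. Its gene *Ttr*, on chromosome 18 from 20665280 to 20674321, was counted 13 and 28 times in WT against 4 and 2 times in *Patz1* KO. The ratio of WT over *Patz1* KO from the pooled counts was 9.10, with an exact 95% interval from 3.84 to 26.2 for counting error alone. Without WT replicate 2 the log2 fold change of *Ttr* went from -3.12 to -2.52.

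Per kilobase of exon, *Rbp4* was 18.1-fold and 11.0-fold above *Ttr* in the WT libraries. It was 6.26-fold and 11.6-fold above it in the *Patz1* KO libraries, where *Ttr* rests on 4 and 2 counts.

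*Afp* encodes alpha-fetoprotein, the main serum protein of the fetus and a classic product of visceral endoderm. It lies on chromosome 5 from 90490737 to 90508907. It was counted 11 and 15 times in WT against 12 and 21 times in *Patz1* KO, which is 0.840 ± 0.145 against 0.873 ± 0.535 CPM (SD, n = 2 each). The groups overlapped, since *Patz1* KO replicate 1 was the lowest library and *Patz1* KO replicate 2 the highest. The pooled ratio of WT over *Patz1* KO was 1.05, with a counting interval from 0.603 to 1.81. The log2 fold change was -0.036 (standard error 0.49), and it was 0.57 without *Patz1* KO replicate 1 and -0.75 without *Patz1* KO replicate 2.

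The lipoprotein genes were counted at low levels throughout. Apolipoprotein B is the structural protein of chylomicrons and very low density lipoproteins, and *Apob* lies on chromosome 12 from 7977648 to 8016835. It was counted 19 and 31 times in WT against 15 and 10 times in *Patz1* KO, which is 1.61 ± 0.476 against 0.607 ± 0.0159 CPM (SD, n = 2 each). The groups did not overlap in CPM, and the log2 fold change was -1.40 (standard error 0.41), or -1.05 without WT replicate 2. Apolipoprotein A-I is the main protein of high density lipoprotein and a ligand of cubilin. *Apoa1*, on chromosome 9 from 46228580 to 46230466, was counted 10 and 8 times in WT against 9 and 6 times in *Patz1* KO. In CPM both *Patz1* KO libraries were the lower ones, at 0.371 and 0.358 against 0.671 and 0.503. The counting interval of the pooled ratio of WT over *Patz1* KO went from 0.761 to 3.41.

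Fibrinogen, the precursor of the blood clot, is built from alpha, beta and gamma chains whose genes lie side by side on chromosome 3. The counts of these chains were very unequal. *Fgb*, the beta chain gene (83040141 to 83049863, minus strand), was counted 186 and 207 times in WT against 14 and 7 times in *Patz1* KO. This was 12.7 ± 0.376 and 0.497 ± 0.113 CPM (SD, n = 2 each). Its log2 fold change, -4.62 (standard error 0.27), was the largest of the 7 genes tested. *Fga*, the alpha chain gene (83026076 to 83033627), lies 6513 bases from *Fgb* and had 0 counts in all 4 libraries. The gamma chain gene *Fgg*, chosen as a partner, was counted 3 and 5 times in WT against 3 and 2 times in *Patz1* KO. Per kilobase of exon, *Fgb* was at least 49.0-fold and 54.5-fold above *Fga* in the WT libraries, taking 3 counts per library as the most that *Fga* could have. It was 34.1-fold and 22.7-fold above *Fgg* in WT, on 3 and 5 counts of *Fgg*.

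*Vtn* was the most highly expressed of the 10 genes. It encodes vitronectin, an adhesive glycoprotein of plasma and matrix that binds integrins, and lies on chromosome 11 from 78499091 to 78502324. It was counted 850 and 884 times in WT against 82 and 72 times in *Patz1* KO, which is 56.3 ± 1.04 against 3.84 ± 0.643 CPM (SD, n = 2 each). The WT libraries differed from each other by little and were far above both *Patz1* KO libraries. The log2 fold change was -3.90 (standard error 0.14), and leaving out any 1 library kept it between -4.05 and -3.71. *Vtn* alone made up 51.3% to 56.7% of the summed CPM of the 10 genes in WT. Of all genes tested, 71.5% had a lower mean CPM than *Vtn* in WT.

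To show the starts of the fibrinogen chain genes beside those of *Vtn* and *Afp*, the windows from 250 bases before to 50 after the annotated start are given from RefSeq on GRCm38.p6, 5′ to 3′ on the strand of the gene. The capitals mark the letters GTTAAT or their reverse complement ATTAAC, the core of sites of HNF1 factors, homeodomain proteins of liver and endoderm. Of the 10 genes, *Fgb*, *Fga*, *Vtn* and *Afp* were the 4 with such a match among the 9 with an entry.
Fgb (chr3:83049814-83050113, minus strand): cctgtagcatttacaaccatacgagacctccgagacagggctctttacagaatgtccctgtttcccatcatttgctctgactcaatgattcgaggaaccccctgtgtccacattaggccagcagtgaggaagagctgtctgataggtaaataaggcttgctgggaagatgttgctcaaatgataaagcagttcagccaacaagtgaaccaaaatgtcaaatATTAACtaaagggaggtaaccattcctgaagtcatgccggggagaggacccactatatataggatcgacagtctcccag
Fga (chr3:83025903-83026202, plus strand): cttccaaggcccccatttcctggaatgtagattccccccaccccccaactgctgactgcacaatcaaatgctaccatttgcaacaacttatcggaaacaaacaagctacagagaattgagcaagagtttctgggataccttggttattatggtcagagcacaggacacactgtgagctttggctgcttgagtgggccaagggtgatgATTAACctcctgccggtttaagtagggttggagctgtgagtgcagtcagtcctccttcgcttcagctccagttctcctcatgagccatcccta
Fgg (chr3:83007474-83007773, plus strand): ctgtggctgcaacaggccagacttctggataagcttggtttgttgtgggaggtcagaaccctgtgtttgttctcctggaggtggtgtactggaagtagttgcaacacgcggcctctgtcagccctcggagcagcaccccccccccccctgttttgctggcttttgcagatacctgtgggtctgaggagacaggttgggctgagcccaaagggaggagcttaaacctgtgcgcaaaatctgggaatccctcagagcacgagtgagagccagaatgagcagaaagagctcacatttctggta
Vtn (chr11:78498870-78499169, plus strand): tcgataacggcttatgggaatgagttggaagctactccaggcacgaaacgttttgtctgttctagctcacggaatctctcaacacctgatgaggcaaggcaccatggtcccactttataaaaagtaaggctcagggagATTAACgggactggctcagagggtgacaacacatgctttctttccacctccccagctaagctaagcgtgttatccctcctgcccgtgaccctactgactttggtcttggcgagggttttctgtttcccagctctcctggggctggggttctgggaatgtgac
Afp (chr5:90490464-90490763, plus strand): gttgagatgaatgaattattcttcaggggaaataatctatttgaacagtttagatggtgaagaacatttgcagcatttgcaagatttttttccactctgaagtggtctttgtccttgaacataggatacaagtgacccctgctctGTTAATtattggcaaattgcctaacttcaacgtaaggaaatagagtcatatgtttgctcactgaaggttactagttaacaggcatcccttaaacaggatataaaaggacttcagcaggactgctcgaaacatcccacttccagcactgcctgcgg
The window of the partner *Fgg* has none. The match begins 29 bases before the start in *Fgb*, 43 in *Fga*, 112 in *Vtn* and 105 in *Afp*. The letters were searched on both strands, and 7.1% of 32851 windows of 300 bases hold them. They stand in the windows of *Fgb* and *Vtn*, which had 186 to 884 counts in WT, as well as in those of *Fga* at 0 counts and *Afp* at 11 to 21. A match of letters is a description of the sequence and not a site. The other letters searched, also on both strands, were the forkhead core TGTTTAC (3.65% of windows), the GATA core AGATAA (11.2%), the HNF4 core CAAAGTCCA (0.475%), the TATA box TATAAA (13.6%) and the G-rich run GGGGNGGGG (22.4%), and *Apoa1*, *Cubn* and *Amn* had no match to any of the 6.

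The receptors of the pair were also unlike each other. Cubilin is a large peripheral protein that binds apolipoprotein A-I, albumin, transferrin and the complex of vitamin B12 with intrinsic factor. *Cubn*, on chromosome 2 from 13276338 to 13491813 on the minus strand, was counted 159 and 224 times in WT against 51 and 17 times in *Patz1* KO. This was 12.4 ± 2.41 and 1.56 ± 0.770 CPM (SD, n = 2 each), with both *Patz1* KO libraries well below both WT libraries. The log2 fold change was -2.92 (standard error 0.26). Leaving out any 1 library kept it between -3.60, without *Patz1* KO replicate 1, and -2.55. The exons of *Cubn* overlap those of *Gm13270* on the other strand by 368 bases, and since the strand setting of the counting is not given in the sources used here, reads of the overlap cannot be assigned with certainty.

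Amnionless anchors cubilin in the membrane and is needed for its transport to the cell surface. *Amn*, on chromosome 12 from 111271095 to 111276426, was counted 6 and 4 times in WT against 9 and 3 times in *Patz1* KO. The groups overlapped, and the counting interval of the pooled ratio of WT over *Patz1* KO went from 0.430 to 2.80. Per kilobase of exon, *Cubn* was at 0.947 and 1.25 CPM against 0.237 and 0.148 CPM for *Amn* in WT. In *Patz1* KO *Cubn* was 0.856-fold of *Amn* in both libraries, where *Amn* rests on 9 and 3 counts.

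Ordered by level per exon length in WT, the genes were *Vtn* (32.3 ± 0.595 CPM per kb), *Rbp4* (14.9 ± 2.15), *Fgb* (3.35 ± 0.0986), *Ttr* (1.11 ± 0.529), *Cubn* (1.10 ± 0.214), *Apoa1* (0.567 ± 0.115), *Afp* (0.407 ± 0.0702), *Amn* (0.192 ± 0.0628), *Apob* (0.116 ± 0.0342) and *Fga* at 0 (CPM per kb, SD, n = 2 each). *Ttr* and *Cubn* overlapped between libraries, and the other neighbours in this order did not. In *Patz1* KO the first places were still held by *Vtn* at 2.20 ± 0.369 and *Rbp4* at 1.02 ± 0.206 CPM per kb (SD, n = 2 each). *Afp* (0.423 ± 0.259 CPM per kb) and *Apoa1* (0.352 ± 0.00923) followed, and they overlapped between libraries. *Amn* (0.162 ± 0.0799 CPM per kb), *Cubn* (0.138 ± 0.0684), *Fgb* (0.130 ± 0.0297) and *Ttr* (0.120 ± 0.0273) overlapped as well, on 2 to 51 counts per library, and *Apob* was the lowest above *Fga* at 0.0436 ± 0.00114 CPM per kb (SD, n = 2 each).

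**Figure D2:**
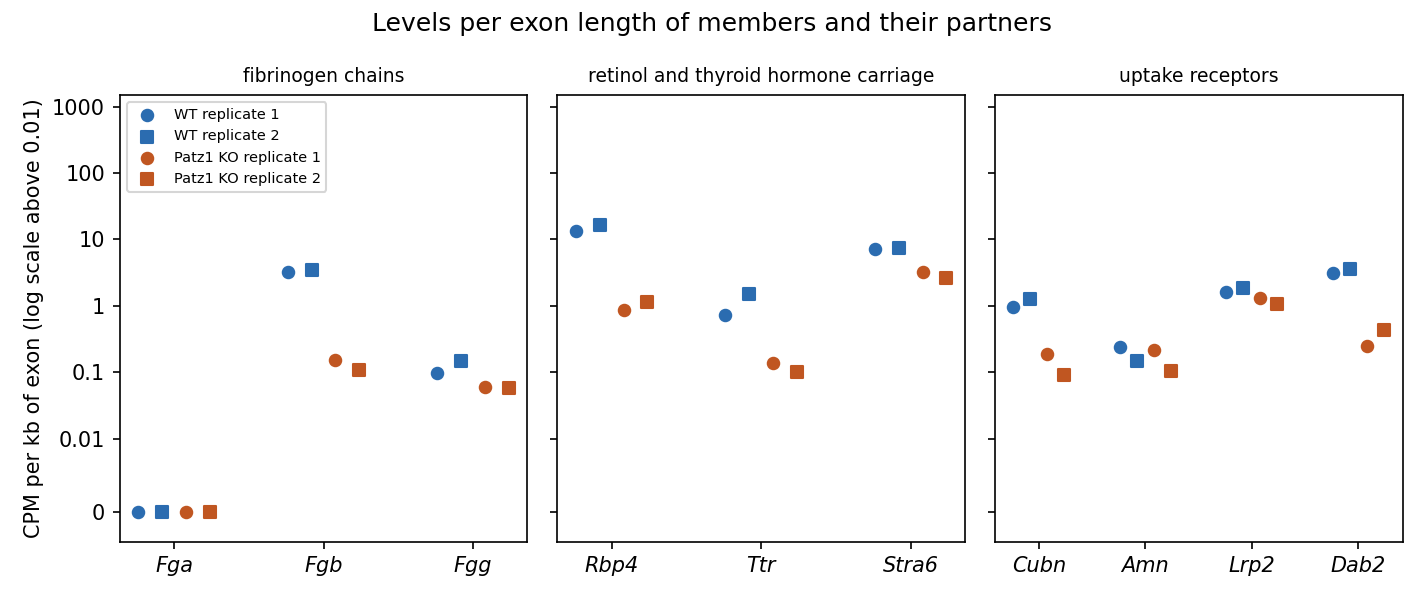
Level per exon length (vertical axis, CPM per kb, logarithmic above 0.01) in each library for the fibrinogen chain genes, for *Rbp4* and *Ttr* with the retinoid gene *Stra6*, and for *Cubn* and *Amn* with *Lrp2* and *Dab2*. In WT *Fgb* lies above *Fga* and *Fgg*, *Rbp4* above *Ttr* and *Cubn* above *Amn*.

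The genes that work with these proteins were counted from 5 lists drawn up by role. Of 98 such genes, 62 were tested, and 25 were lower and 11 higher in *Patz1* KO by the same test, beside 23.8% lower and 24.1% higher among all genes tested. Their median log2 fold change was -0.22, where the median over all genes tested was -0.0014. Without WT replicate 1 the number lower was 16.

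The genes of uptake went both ways. Of 21 tested, 10 were lower, 4 higher and 7 did not pass, with a median log2 fold change of -0.20. *Dab2*, the adaptor that links receptors of this class to clathrin, fell from 241 and 300 reads to 32 and 38 with the knockout, for a log2 fold change of -3.34 (standard error 0.22, edgeR adjusted p = 1.93e-09). *Folr1*, a folate receptor, fell from 52 and 59 counts to 5 and 5 (log2 fold change -3.84, edgeR adjusted p = 6.54e-07). It passed the filter on low counts through its WT libraries only. *Lrp2* encodes megalin, the receptor that takes up ligands together with cubilin. It was at 29.1 ± 3.06 CPM in WT and 19.5 ± 2.76 CPM in *Patz1* KO (SD, n = 2 each) for a log2 fold change of -0.57 (standard error 0.13, edgeR adjusted p = 0.00125). The chaperone gene of megalin, *Lrpap1*, did not pass (log2 fold change -0.20, edgeR adjusted p = 0.0794), though it did without *Patz1* KO replicate 1 (0.0232). *Vldlr*, a receptor of the same family, rose by 0.88 on the log2 scale (edgeR adjusted p = 6.85e-07).

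Genes of retinol and thyroid hormone handling were split as well. Of 8 tested, 4 were lower and 3 higher. *Stra6*, the membrane receptor of RBP4, fell from 26.4 ± 0.709 to 10.6 ± 1.55 CPM (SD, n = 2 each). Its log2 fold change was -1.31 (standard error 0.13, edgeR adjusted p = 4.16e-07). *Lrat*, whose enzyme stores retinol as esters, and *Rdh10*, which oxidises retinol, fell (log2 fold changes -2.82 and -1.23, edgeR adjusted p = 7.11e-10 and 1.28e-06). The cultures were given retinoic acid, which both genotypes shared.

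Of the 25 lipoprotein genes listed, 13 were tested, 3 were lower and 3 higher, and the median log2 fold change was -0.062. Without WT replicate 1 only *Lpl* was still called lower. *Lpl*, which encodes lipoprotein lipase, fell by 1.53 on the log2 scale and *Apoe* rose by 1.24 (edgeR adjusted p = 3.22e-08 and 1.17e-06). *Soat2*, whose enzyme esterifies cholesterol, was counted 131 and 86 times in WT against 46 and 77 times in *Patz1* KO (log2 fold change -1.19, edgeR adjusted p = 0.00496, and 0.0560 without WT replicate 1). *Mttp*, whose product loads lipid onto apolipoprotein B, was at 13.1 and 14.4 CPM in WT and at 11.4 and 11.0 CPM in *Patz1* KO and did not pass (log2 fold change -0.29, edgeR adjusted p = 0.107). Its exons overlap those of *Trmt10a* on the other strand. *Apoc3*, which adjoins *Apoa1*, had 0 counts in all libraries, *Apoa4* was counted 10 and 9 times in WT against 0 and 1 times in *Patz1* KO, and *Apoa2* had 3 and 4 in WT and 0 and 8 in *Patz1* KO.

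Of 22 genes of coagulation and vitronectin binding, 12 were tested, 4 were lower and 1 higher, with a median log2 fold change of -0.48. The vitronectin receptor chains *Itgav*, whose exons overlap those of *Gm13684*, and *Itgb5* fell (log2 fold changes -0.98 and -1.19, edgeR adjusted p = 2.3e-07 and 3.93e-06), and *Itgb3*, counted 14 and 21 times in WT against 28 and 24 times in *Patz1* KO, did not pass (edgeR adjusted p = 0.743). *Serpine2*, a protease inhibitor, rose by 2.19 on the log2 scale (edgeR adjusted p = 2.45e-11). Of 20 other plasma protein genes, 8 were tested, with 4 lower, 0 higher and a median of -0.51, and 1 was lower without WT replicate 1. *Serpinf1* fell from 197 and 199 counts to 57 and 29 (log2 fold change -2.62, edgeR adjusted p = 2.39e-08), and *Itih2* was counted 17 and 11 times in WT against 0 and 3 times in *Patz1* KO, so that it passed the filter through WT only. Its pooled ratio of WT over *Patz1* KO was 12.4 with a counting interval from 3.84 to 63.9, and without WT replicate 1 it was not tested. *Serping1* fell by 0.57 on the log2 scale (edgeR adjusted p = 0.00738, and 0.110 without WT replicate 1). *Alb*, the gene of albumin, was counted 1 and 1 times in WT against 0 and 0 times in *Patz1* KO. The transferrin gene *Trf*, whose exons overlap those of *Gm20425* on the same strand, was counted 24 and 20 times in WT against 56 and 20 times in *Patz1* KO and did not pass (edgeR adjusted p = 0.479).

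**Figure D3:**
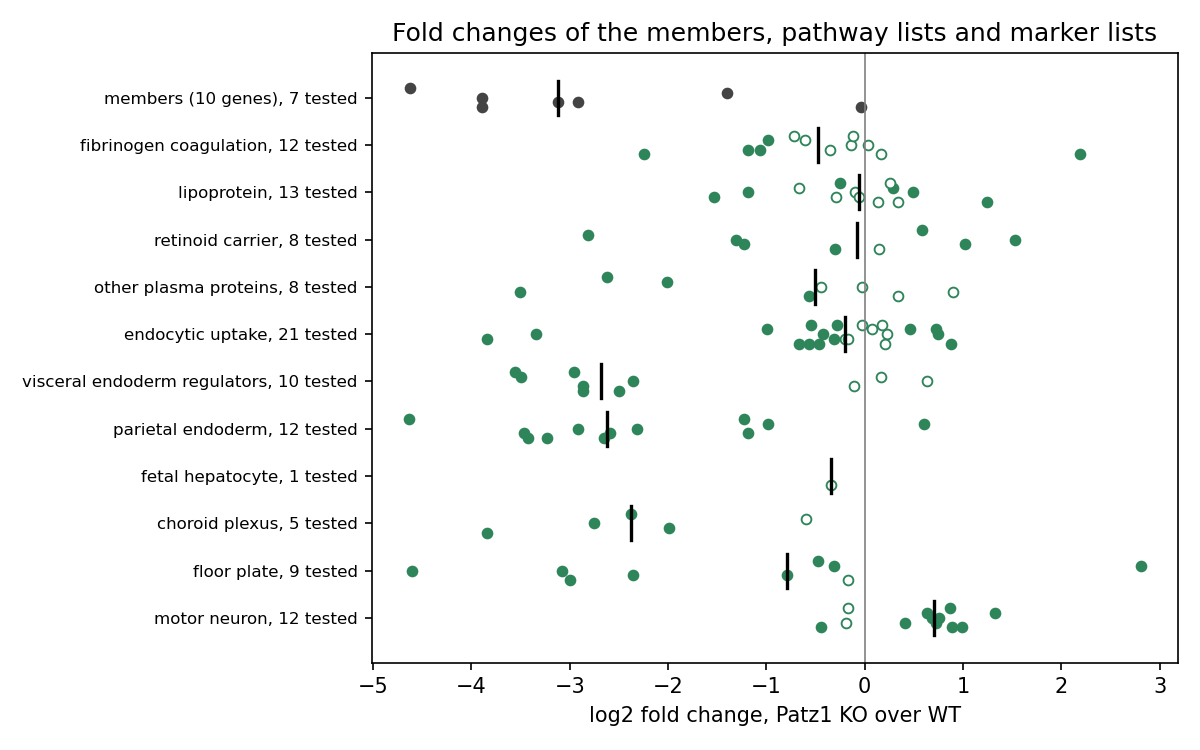
Log2 fold change of *Patz1* KO over WT (horizontal axis) for each tested gene of the members, the pathway lists and the marker lists (rows). Filled green points had an adjusted p below 0.05 in edgeR's quasi-likelihood test, open ones did not, members are grey without a test, and the black bar is the median of the row. The medians of the visceral and parietal endoderm rows lie at -2.68 and -2.62, that of the motor neuron row at 0.71.

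The name visceral endoderm was checked against markers of that and of other cell types. The count of each marker list stands beside 23.8% lower and 24.1% higher among all genes tested. The regulators of visceral endoderm were lower in *Patz1* KO for 7 of 10 tested genes and higher for 0 (median log2 fold change -2.68). Of these 10, *Hnf4a*, *Gata4*, *Sox17* and *Ihh* passed the filter on low counts through their WT libraries only. With a filter of 10 counts in all 4 libraries, 4 were tested and 2 were lower, *Foxa1* and *Foxa2*. In *Patz1* KO, *Gata6* reached the level of the first filter in replicate 2 only. The summed level over the 14 genes listed was 67.6 and 73.7 CPM in WT and 22.9 and 24.3 CPM in *Patz1* KO. *Foxa2* held 28.0 and 28.3 CPM of it in WT and 5.15 and 5.96 CPM in *Patz1* KO. *Foxa1* held 11.2 and 13.8 CPM in WT and 1.57 and 1.91 CPM in *Patz1* KO. *Gata4* and *Foxa1* fell (log2 fold changes -3.49 and -2.86, edgeR adjusted p = 2.02e-07 and 1.66e-08). *Foxa2*, which is also a floor plate gene, fell too (log2 fold change -2.35, edgeR adjusted p = 5.27e-10). *Hnf4a*, the defining regulator of the secretory program, was counted only 13 and 16 times in WT against 1 and 4 times in *Patz1* KO (edgeR adjusted p = 0.00175). The data go against the name in that *Afp*, *Apoa1* and *Amn* had 4 to 15 counts and *Fga* 0 in the WT libraries. The set is therefore called here by the genes with the most reads in WT, *Vtn*, *Rbp4*, *Fgb* and *Cubn*. Per kilobase of exon *Cubn* was no higher than *Ttr* in WT (1.10 and 1.11 CPM per kb).

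Markers of other cell types moved with the same comparison. Of the 12 parietal endoderm and basement membrane genes, 11 were lower and 1 higher, with a summed level of 1555 and 1724 CPM in WT and 511 and 471 CPM in *Patz1* KO. Of these 12, 2 passed the filter on low counts through their WT libraries only. A filter of 10 counts in all 4 libraries left 10 tested and 9 lower. *Col4a1* and *Lamb1* fell (log2 fold changes -3.23 and -2.91, edgeR adjusted p = 1.16e-12 and 2.01e-12), as did *Col4a2* (log2 fold change -2.59, edgeR adjusted p = 1.95e-12). The exons of *Col4a1* and *Col4a2* overlap by 22 bases on opposite strands. Of the 9 floor plate genes, 7 were lower and 1 higher, with summed levels of 1057 and 1050 CPM in WT and 828 and 717 CPM in *Patz1* KO. Among these 9, 1 passed through WT only, and with at least 10 counts in every library 8 were tested and 6 were lower. *Shh* fell and *Nkx6-2* rose (log2 fold changes -2.99 and 2.81, with exons that overlap 9530036O11Rik and *Inpp5a* on the other strand, edgeR adjusted p = 1.56e-11 and 8.43e-11).

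Of 11 choroid plexus genes, 5 were tested and 4 were lower. Among the 5, *Folr1* and *Kcnj13* passed the filter through WT only, and with at least 10 counts in every library 2 were tested and both were lower. The sum over the 11 genes was 86.3 and 88.1 CPM in WT and 24.1 and 19.3 CPM in *Patz1* KO, most of it from *Enpp2* (72.2 ± 0.247 and 18.1 ± 3.48 CPM, SD, n = 2 each, edgeR adjusted p = 4.14e-10). *Clic6* fell by 2.75 on the log2 scale (edgeR adjusted p = 1.05e-06). The defining choroid plexus gene *Otx2* was counted 0 and 0 times in WT against 1 and 2 times in *Patz1* KO. Of 13 fetal hepatocyte genes, *Tat*, *Hamp*, *Otc* and *Cyp3a11* were at 0 in all libraries, 8 had at most 3 counts in every library, and only *Prox1*, which neurons also express, was tested (log2 fold change -0.34, edgeR adjusted p = 0.0532, and 0.00995 without *Patz1* KO replicate 2). Motor neuron genes were higher for 9 and lower for 1 of 12, with summed levels of 1252 and 1188 CPM in WT and 1760 and 1726 CPM in *Patz1* KO. *Prph* rose by 1.33, *Chat* by 0.99 and *Mnx1* by 0.88 on the log2 scale (edgeR adjusted p = 3.26e-09, 3.4e-07 and 5.25e-07). The part of these cell types in the values of the 10 genes was not tested.

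The nearest protein-coding genes on either side of each member were then compared. There were 17 neighbours in the count tables that are no members. Of these, 11 were tested, and 5 were lower, 5 higher and 1 neither, beside 23.8% lower and 24.1% higher among all genes tested. *Klhl29*, 1 of the 5 higher, lies 2601965 bases from *Apob*. *Ffar4*, a fatty acid receptor gene 2365 bases from *Rbp4*, was counted 32 and 32 times in WT against 1 and 1 times in *Patz1* KO, a pooled ratio of 42.6 with a counting interval from 11.3 to 359 (edgeR adjusted p = 2.05e-06). *Dsg2*, a desmosomal cadherin gene 60758 bases from *Ttr*, fell from 77 and 82 reads to 12 and 5 with the knockout, for a log2 fold change of -3.62 (standard error 0.35, edgeR adjusted p = 1.81e-07). Its exons overlap the antisense gene *Gm16090*. *Ffar4* and *Dsg2* passed the filter on low counts only through their WT libraries. *Sik3* beside *Apoa1* fell by 0.43 on the log2 scale (edgeR adjusted p = 0.00385).

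Near *Cubn*, *Vtn* and *Fgb* no tested neighbour had a log2 fold change below -2. *Rsu1*, 4922 bases from *Cubn*, rose by 0.84 on the log2 scale (edgeR adjusted p = 5.85e-06), and *Trdmt1* on the other side was counted 101 and 108 times in WT against 163 and 126 times in *Patz1* KO and did not pass (edgeR adjusted p = 0.805). *Sarm1*, 1336 bases from *Vtn*, rose by 0.51 (edgeR adjusted p = 0.00193), and *Sebox* on the other side of *Vtn* had at most 3 counts in any library. *Plrg1*, 5658 bases from *Fgb*, fell by 0.23 (edgeR adjusted p = 0.0377). *Alb* and *Afm* on both sides of *Afp* had at most 1 count in any library. Without WT replicate 2 the calls of *B4galt6* beside *Ttr* (log2 fold change -0.27 in that fit) and *Klhl29*, 2601965 bases from *Apob* (0.36), were lost. So were those of *Plrg1* (-0.19), *Sarm1* (0.37) and *Cdc42bpb* beside *Amn* (0.32). That of *Traf3* beside *Amn* was lost without WT replicate 1 (edgeR adjusted p = 0.284), without WT replicate 2 (0.0573) and without *Patz1* KO replicate 1 (0.152). Without WT replicate 1, edgeR's adjusted p was 0.0653 for *Klhl29*, 0.162 for *Plrg1* and 0.0674 for *Cdc42bpb*, and without *Patz1* KO replicate 1 it was 0.0534 for *Klhl29* and 0.0677 for *Plrg1*.

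**Figure D4:**
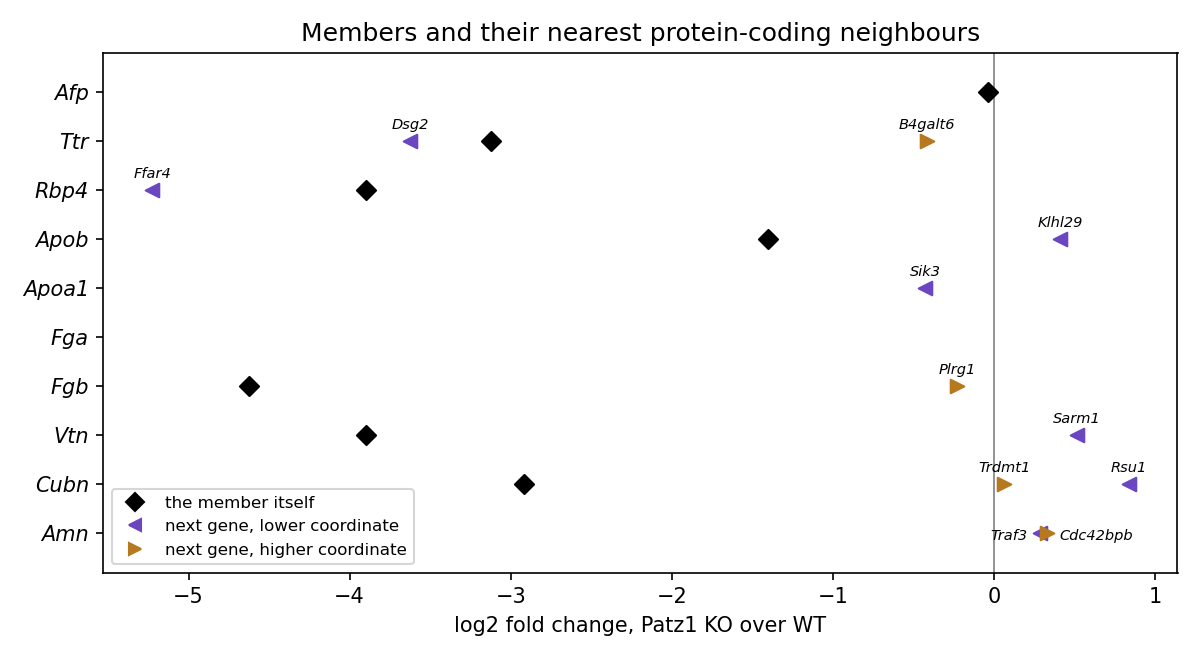
Log2 fold change of *Patz1* KO over WT (horizontal axis) for each tested member (black diamonds) and its nearest tested protein-coding neighbour at lower (purple) and higher (ochre) coordinates, with 1 row per member. *Ffar4* and *Dsg2* lie to the left of *Rbp4* and *Ttr*, while the tested neighbours of *Vtn* and *Cubn* lie at or above 0.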

How the data were processed

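RNA-seq of 4 libraries (2 WT, 2 *Patz1* KO cervical MN cultures) was analysed. The authors deposited raw counts per gene symbol. Per the paper's methods and the submitters' processing notes, reads were mapped to mm10 with Bowtie 2 (the notes also list TopHat2 2.1.1) and counted with featureCounts 1.6.2, with annotation and strand setting not given in the sources used here. All rows of the tables entered the library sizes.

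Counts were filtered with filterByExpr (minimum count of 10, 14269 genes left), normalized with TMM and tested with edgeR 4.0.16 in R 4.3.3 (quasi-likelihood test, Benjamini-Hochberg adjustment over all genes tested). The fit was checked on simulated counts. Standard errors were derived from the size of the log2 fold change and the F statistic. Exact 95% intervals of pooled count ratios come from the binomial distribution (scipy 1.17.1). With 2 libraries against 2 an exact permutation test cannot go below 0.333, so none was run. Positions, merged exon lengths and overlaps are from GENCODE M21 on GRCm38, the assembly of mm10, which matched 21739 of 23420 symbols. The tests measure the spread between replicates called separate differentiations. They do not measure a spread between knockout clones, and without clone labels an effect of clone cannot be told apart from that of genotype.

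The genes, lists and markers were chosen with earlier results of these data known. Genes named are the members, *Patz1*, fixed partners, nearest neighbours and, per list, the 3 tested genes ranked first by p, and a result of the rule is not reported here. *Hnf4a*, *Otx2*, *Sox17*, *Ihh*, *Kcnj13*, *Gc*, *Gata6*, *Pla2g12b*, *Ahsg*, *Igfbp1*, *F2* and the marker genes at 0 were named after their values were seen. The alternatives fixed with the design were DESeq2 size factors, TMM computed after dropping the 20 most counted genes, plain library size, no filter, at least 10 counts in every library, DESeq2 1.42.0's Wald test, a robust fit, the replicate number as a block and leaving out each library.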

Additional observations from a re-analysis of the deposited data

How the results depend on the processing

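Leaving out 1 library at a time, with the lone library of a group assumed to vary like the other genotype, gave 4521 to 7816 genes called in all (6837 with all libraries). It gave 16 to 29 pathway genes lower (25), 27 to 31 marker genes lower (29) and 5 to 6 of the 10 members lower (6). Requiring at least 10 counts in every library, which removed *Fgb* and *Ttr* and most low genes before testing, left 19 marker genes lower of 36 tested and 4 members lower. DESeq2's Wald test called 5116 genes, 23 pathway genes and 5 members lower, without *Apob*. The replicate number pairs nothing by the labels, and deviations of same-numbered libraries correlated at 0.0485. With the replicate block 7363 genes, 25 pathway genes lower, 30 marker genes lower and 6 members lower were called, and the calls it changed among the listed genes were those of *Prox1* and *Ap2a1*, which it added. Over all alternatives, the values of listed and neighbouring genes kept their side of the threshold 1357 times, lost a call 55 times and gained one 19 times, and no called gene reversed direction. Settings in which a gene was not tested or had no adjusted p are not among these values, so they do not count as lost calls. Plain library size moved the median of all genes to -0.030. Depth limits *Apoa1*, *Amn* and *Fga*, which had 0 to 10 counts per library and were not tested.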

Other observations

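Of the 98 pathway genes, 36 were too low in counts to be tested. Among them 7 were at 0 in all libraries, 12 had both *Patz1* KO libraries below both WT libraries in CPM, 0 had both above, and 17 overlapped. The shares of 37.2% and 37% are of the genes tested, which have more counts, and give no baseline for genes this low. The following 3 of the 12 were picked after their values were seen. *Gc*, the vitamin D binding protein gene, was counted 11 and 4 times in WT against 0 and 0 times in *Patz1* KO. *Pla2g12b*, which takes part in lipoprotein secretion, was counted 10 and 7 times in WT against 1 and 2 times in *Patz1* KO. *Ahsg*, the gene of fetuin-A, was counted 2 and 1 times in WT against 0 and 0 times in *Patz1* KO. None of these 3 genes was tested, and with so few counts no fold is given for those at 0. Among the 17 that overlapped, *Igfbp1* was counted 6 and 0 times in WT against 8 and 14 times in *Patz1* KO, and *F2* 2 and 9 times against 10 and 7 times. *Gata6*, an endoderm regulator counted 75 and 97 times in WT against 7 and 12 times in *Patz1* KO, fell by 3.55 on the log2 scale (edgeR adjusted p = 3.82e-07), and its exons overlap those of *1010001N08Rik* on the other strand by 93 bases.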
